A study of Rattus norvegicus with 12 samples.

Results

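Kidneys of obese and lean Zucker rats kept on control diet were compared over all named genes of the array. The comparison uses 6 of the 12 arrays of the study: the 3 arrays titled obese control and the 3 titled lean control, 1 rat each. The obese control rats and the lean control rats were males that ate ground chow without drug for 12 weeks. The other 6 arrays came from obese and lean males that ate the same chow with rosiglitazone, a PPARγ agonist, at 3 mg per kg body weight. The submitters describe the rats as a diabetes model, and no age is given. Total RNA was taken from kidney tissue, so each value averages over all cells of the piece taken.

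The obese Zucker rat carries a recessive defect of the leptin receptor, eats in excess and becomes insulin resistant, while its lean littermates have a working receptor. Most cells of the kidney cortex are proximal tubule cells, which take back sugars, amino acids, phosphate and filtered protein from the urine and secrete organic acids and bases into it. They also split peptides at a brush border, make glucose, and burn fatty acids in mitochondria and peroxisomes. The distal tubule and collecting duct then adjust sodium, potassium and water under hormonal control. Lepr, the leptin receptor gene, had signals of 148, 199 and 123 in obese rats, against 175, 83.5 and 164 in lean rats. The groups overlapped, and no difference was called (log2 change 0.17, SE 0.26, limma adjusted p = 0.778). A receptor defect that leaves the transcript in place would not be seen by this probe set, so Lepr does not check the labels.

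Signals are MAS5 values on a linear scale, and differences are given as log2 changes of signal plus 16, obese minus lean, with their standard error (SE). A gene was called at a limma adjusted p under 0.05, fitted over 18625 probe sets and all 12 arrays, and each gene was read through 1 probe set, that of the highest mean. The labelled tissue was checked by its markers. The 8 proximal tubule markers summed to 38974 to 42901 in obese rats, against 46617 to 55045 in lean rats, and these ranges did not overlap. A sum of signals is weighted to the bright probe sets, and 3 of the 8 went the other way: Slc5a2 (log2 change 3.23), Slc5a12 (1.06, below the limit on dim probe sets) and Slc22a8 (0.16). Of the 7 tested, 2 were called lower, Aqp1 (−0.46) and Cubn (−0.47). Aqp1 lost its call without obese rat 2 or 3 or lean rat 1 or 2, and Cubn without obese rat 2 or 3 or lean rat 1 (limma adjusted p = 0.0506 to 0.084). Aqp1 was also lost with arrays centred on their medians and with plain eBayes (limma adjusted p = 0.0591 to 0.0678). The summed thick limb, intercalated cell, endothelial and macrophage markers overlapped between groups. The 3 distal tubule markers summed to 14921 to 16003 in obese rats, against 5545 to 12290 in lean rats. Calb1 was the brightest of them and uneven in lean rats (8337, 3156 and 8118). Of the 2 tested, 0 were called, and Pvalb, below the limit on dim probe sets, went the other way (−0.23). Of the 4 brown fat markers, the sum was 580.2 to 585.03 in obese rats, against 1431 to 2448 in lean rats, and of the 5 white fat markers it was 1054 to 1705 in obese rats, against 2330 to 4245 in lean rats. Median signals lay between 204.0 and 238.6 over the 12 arrays, and the Gapdh 3′ to 5′ ratio between 1.07 and 1.32. A spike-in control of the array (cre 3′) was higher in obese control rat 1 and lean control rats 1 and 2 than in the other control diet rats.

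On control diet, 580 of 10524 genes tested were called (5.51%), of which 255 were higher in obese kidneys (2.42%) and 325 lower (3.09%). Most of the changes were small: 84 genes changed at least 2-fold, 229 between 1.5-fold and 2-fold, and 267 by less, with a median absolute log2 change of 0.61. The groups did not overlap for 26.8% of all genes tested. Over probe sets, 882 were called (4.74%), 401 higher (2.15%) and 481 lower (2.58%), so that 45.5% of the calls were higher. With arrays centred on their medians, 516 were called and 34.7% of them were higher. With the spike-in class in the model 995 probe sets were called, and within the lower and the higher class, which hold fewer rats, 164 and 52. The gene count depended on single rats: it was 354, 210 and 222 without obese rat 1, 2 or 3, and 244, 358 and 550 without lean rat 1, 2 or 3. Of the 580 calls, 165 held whichever of the 6 rats was left out. The genes named below as higher or lower belong to these 165 unless a rat is named without which the call was lost. For a list, the share called is to be read against 5.51%, and its median against 0.02, the median log2 change of all genes tested.

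The data bear first on transporters and enzymes of the proximal tubule, and 3 promoters of genes that were lower are shown because HNF1 and HNF4 factors are known regulators of such genes. The 250 bases before the start of each gene are given 5′ to 3′ on the strand of the gene, from RefSeq on GRCr8. Capitals mark a match to the letters GTTAATNAT (HNF1) or CAAAGTCCA (HNF4), searched on both strands.
Slc7a12: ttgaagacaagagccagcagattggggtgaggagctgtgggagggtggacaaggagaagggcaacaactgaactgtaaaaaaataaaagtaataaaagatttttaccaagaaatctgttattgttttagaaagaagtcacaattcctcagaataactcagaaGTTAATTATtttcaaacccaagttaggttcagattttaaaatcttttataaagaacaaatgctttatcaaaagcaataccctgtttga
Slc3a1: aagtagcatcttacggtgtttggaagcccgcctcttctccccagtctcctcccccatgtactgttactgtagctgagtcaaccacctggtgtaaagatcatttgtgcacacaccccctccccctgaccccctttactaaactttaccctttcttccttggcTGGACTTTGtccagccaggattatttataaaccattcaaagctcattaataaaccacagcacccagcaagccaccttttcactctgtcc
Slc22a7: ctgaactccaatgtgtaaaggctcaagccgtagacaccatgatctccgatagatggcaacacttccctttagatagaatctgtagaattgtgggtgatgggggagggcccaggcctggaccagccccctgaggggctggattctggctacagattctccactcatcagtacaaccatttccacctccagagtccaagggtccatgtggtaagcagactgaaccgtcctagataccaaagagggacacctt
These lie at chr2:88868104-88868353 on the minus strand, chr6:15394750-15394999 on the minus strand and chr9:22045248-22045497 on the plus strand. The HNF1 letters end 80 bases before the start of Slc7a12, and the HNF4 letters, on the other strand, end 81 bases before the start of Slc3a1. The Slc22a7 window holds neither. The HNF1 letters were found in 184 of 27457 promoters (0.670%), and the HNF4 letters in 91 (0.331%). Among the 272 genes called lower that have a promoter in the table, the HNF1 letters were in 2, Slc7a12 and the brush border protease gene Mep1b (log2 change −0.69), and the HNF4 letters in 2, Slc3a1 and the biliverdin reductase gene Blvra (log2 change −0.59). Slc3a1 lost its call without obese rat 2 or 3 or lean rat 1 or 2, Blvra without obese rat 2 or 3 or lean rat 1, and Mep1b without obese rat 2 or lean rat 1 (limma adjusted p = 0.0512 to 0.173). The Slc3a1 call was also lost with dim probe sets kept, with arrays centred on their medians, with quantile normalization and with plain eBayes (limma adjusted p = 0.0577 to 0.683). Hnf4a itself had signals of 8329, 7358 and 7858 in obese rats, against 10488, 10511 and 9851 in lean rats. Every obese rat lay below every lean rat, with a small difference (log2 change −0.39, SE 0.08, limma adjusted p = 0.0143). Hnf4a lost its call without obese rat 2 or 3 or lean rat 1 or 2 (limma adjusted p = 0.0507 to 0.0763), and with arrays centred on their medians and with plain eBayes (limma adjusted p = 0.0605 to 0.0776).

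Several transporters that carry organic acids and bases across the proximal tubule were lower in obese kidneys. Of 26 genes tested in the Slc22 and Slco list, which also holds Slc10a2, Slc47a1 and Slc51a, 7 were called lower and 0 higher (26.9%). The median log2 change of the list was −0.20. The count was 3 without obese rat 2, lean rat 1 or lean rat 2 and 4 without obese rat 3. Slco1a1, an organic anion transporter of the brush border, had signals of 2018, 2226 and 2129 in obese rats, against 6103, 5602 and 4860.4 in lean rats. The obese rats lay close together at well under the lowest lean rat (log2 change −1.37, SE 0.17, limma adjusted p = 0.000635). Slc22a7 (Oat2), an organic anion transporter of the last proximal segment, had signals of 516, 463 and 416 in obese rats, against 1276, 1506 and 1141 in lean rats, again without overlap (log2 change −1.46, SE 0.14, limma adjusted p = 5.87e-05). Slc22a13, which carries urate and nicotinate, had signals of 109, 76.3 and 55.9 in obese rats, against 875, 724 and 584 in lean rats. The obese values reached down to the level of the bacterial trpn control probe sets (up to 59.6), so its log2 change of −2.96 (SE 0.24, limma adjusted p = 9e-06) rests on a low level in obese rats. Slc13a3, a dicarboxylate carrier that supplies the exchange of organic anions, was lower (log2 change −1.07, SE 0.13, limma adjusted p = 0.0003). It was the only call among 17 phosphate, sulphate and dicarboxylate transporter genes (5.88%), where the count was 3 without lean rat 3. In whole kidney RNA, fewer cells of a type and less RNA per cell cannot be told apart, and the proximal marker sums above moved with these genes; their part in the result was not tested. Slc5a2, the glucose carrier of the early proximal tubule, went the other way with signals of 759, 1163 and 1704 in obese rats, against 36.5, 54 and 502 in lean rats. It was very uneven between rats and was not called (log2 change 3.23, SE 1.05, limma adjusted p = 0.116). Lean rats 1 and 2 lay under the bacterial trpn control level, so the size of its change rests on low levels in them.

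**Figure D1:**
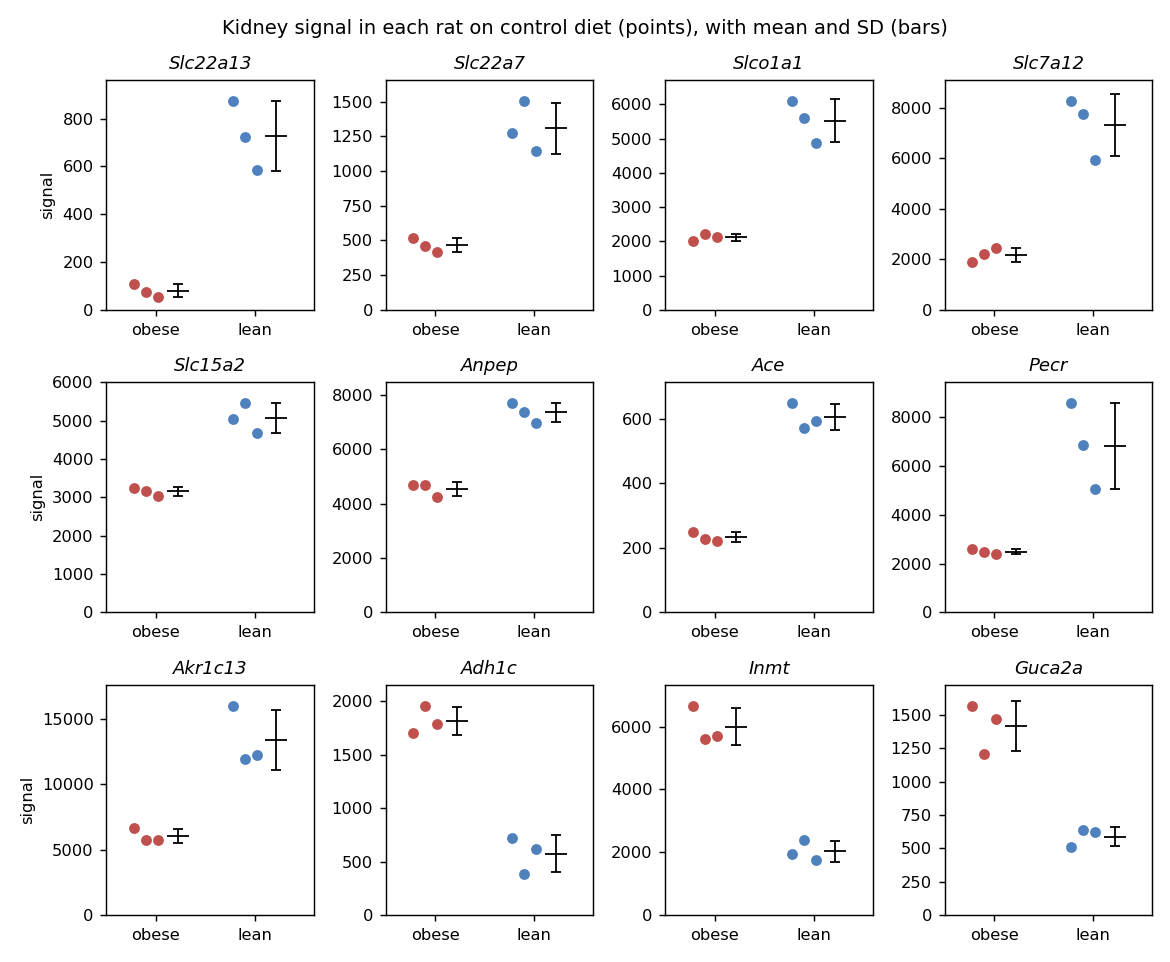
MAS5 signal of 12 genes (vertical axes, linear, from 0) in each rat on control diet, with obese rats (red) to the left of lean rats (blue) and the mean and SD of each group as bars (n = 3 each). In all 12 panels the groups do not overlap; Slc7a12 lies between 1890.2 and 2436 in obese rats and between 5948 and 8277 in lean rats.

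Several amino acid and peptide carriers were lower as well. Of 24 amino acid transporters tested, 7 were lower and 1 higher (33.3%), with a median of −0.15. With quantile normalization that median was −0.03. The count was 4 without obese rat 3, 5 without obese rat 2, lean rat 1 or lean rat 2 and 5 with arrays centred on their medians. Slc7a12, an amino acid carrier of the kidney, had signals of 1890.2, 2225 and 2436 in obese rats, against 8277, 7757 and 5948 in lean rats. Every lean rat was more than 2-fold above every obese rat (log2 change −1.73, SE 0.12, limma adjusted p = 2.42e-06). Slc1a1, the glutamate and aspartate carrier EAAC1, had signals of 2239.9, 2161 and 2328 in obese rats, against 3899, 3382 and 3536 in lean rats, with no overlap (log2 change −0.68, SE 0.09, limma adjusted p = 0.000728). Slc15a2, the high affinity peptide carrier PEPT2, had signals of 3255, 3177 and 3038 in obese rats, against 5049.99, 5456 and 4675 in lean rats, and the spread within each group was small (log2 change −0.68, SE 0.08, limma adjusted p = 0.000277). Slc6a13, a GABA and taurine carrier, was lower (log2 change −0.71, SE 0.13, limma adjusted p = 0.00811). Slc6a18, a carrier of neutral amino acids, was lower as well (log2 change −0.48, SE 0.09, limma adjusted p = 0.00915). Slc6a18 lost its call without obese rat 3 (limma adjusted p = 0.0548), and also with arrays centred on their medians (limma adjusted p = 0.0537). The 1 called higher, Slc7a7, is the basolateral carrier of cationic amino acids (log2 change 1.41, SE 0.37, limma adjusted p = 0.0463). Slc7a7 lost its call without obese rat 1, 2 or 3 or lean rat 1 or 2 (limma adjusted p = 0.106 to 0.172). It was also lost with dim probe sets kept, with arrays centred on their medians, with quantile normalization, with plain eBayes and with an offset of 1 (limma adjusted p = 0.0507 to 0.0715). Among 13 endocytic genes tested, 2 were lower and 0 higher (15.4%), and the list median was −0.03. Amn, the partner that anchors cubilin, averaged 3361 ± 139 in obese rats and 5084 ± 260.01 in lean rats (SD, n = 3 each; log2 change −0.59, SE 0.09, limma adjusted p = 0.00168). Cubn, cubilin itself, was lower (log2 change −0.47, SE 0.09, limma adjusted p = 0.0105). Cubn lost its call without obese rat 2 or 3 or lean rat 1 (limma adjusted p = 0.0506 to 0.063). The list count was 1 without obese rat 2, obese rat 3 or lean rat 1 and 4 without lean rat 3. Lrp2, or megalin, was not called (log2 change −0.34, SE 0.13, limma adjusted p = 0.153).

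Many peptide and phosphate ester splitting enzymes of the brush border and cytosol were lower. This list of 27 tested genes was put together after the values had been seen and carries no independent weight. In it 17 genes were lower and 3 higher, with a median of −0.44 (−0.29 with quantile normalization), and the count of calls was 7 without obese rat 2 or lean rat 1, 9 without obese rat 3, 12 without lean rat 2, 10 with plain eBayes and 11 with arrays centred on their medians. Prep, prolyl endopeptidase, had signals of 2572, 2758 and 2295 in obese rats, against 5208, 5019 and 3674 in lean rats, and the groups did not overlap (log2 change −0.85, SE 0.16, limma adjusted p = 0.00769). Alpl, the tissue nonspecific alkaline phosphatase, averaged 1662 ± 117 in obese rats and 2308 ± 45.7 in lean rats (SD, n = 3 each; log2 change −0.47, SE 0.09, limma adjusted p = 0.00779). Anpep, aminopeptidase N of the brush border, averaged 4541 ± 243 in obese rats and 7354 ± 359 in lean rats (log2 change −0.69, SE 0.09, limma adjusted p = 0.000589). Ace, which turns angiotensin I into II and splits other peptides, averaged 233 ± 15.7 in obese rats and 605 ± 39 in lean rats, and was lower (log2 change −1.32, SE 0.13, limma adjusted p = 5.9e-05). Dpp7, a lysosomal peptidase that frees dipeptides, went the other way with 2034 ± 49.4 in obese rats and 1264 ± 249.8 in lean rats (log2 change 0.70, SE 0.14, limma adjusted p = 0.0101). Lap3, a cytosolic leucine aminopeptidase, was also higher (log2 change 0.55, SE 0.11, limma adjusted p = 0.0141). Lap3 lost its call without obese rat 2 (limma adjusted p = 0.0761), and also with arrays centred on their medians (limma adjusted p = 0.078).

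Several genes of 1-carbon metabolism and amino acid breakdown were lower. Of 29 glycine, serine, choline and 1-carbon genes tested, 7 were lower and 0 higher (24.1%), with a median of −0.23, which was −0.11 with quantile normalization. The count was 3 without obese rat 2, obese rat 3 or lean rat 1 and 4 with arrays centred on their medians or with plain eBayes. Ahcy, which clears S-adenosylhomocysteine after methyl transfer, had signals of 3399, 2839.6 and 2755 in obese rats, against 6470.3, 4739 and 4552 in lean rats. Lean rat 1 was the highest of all 6, and the groups did not overlap (log2 change −0.79, SE 0.15, limma adjusted p = 0.00855). Gcsh, a part of the glycine cleavage system, averaged 3663 ± 50.8 in obese rats and 5162 ± 536 in lean rats (log2 change −0.49, SE 0.09, limma adjusted p = 0.00576). Aldh1l1, a folate enzyme that oxidises 10-formyltetrahydrofolate, averaged 3096 ± 211 in obese rats and 4501 ± 246 in lean rats (log2 change −0.54, SE 0.09, limma adjusted p = 0.00418). Cdo1, the cysteine dioxygenase that starts taurine synthesis, was lower (log2 change −0.56, SE 0.10, limma adjusted p = 0.00503). It was 1 of 2 genes called among 18 in the sulphur list. That count was 1 without obese rat 2, obese rat 3 or lean rat 1, 5 without lean rat 3 and 1 with arrays centred on their medians or with plain eBayes. In the tyrosine list, 3 of 10 genes were lower and 0 higher, among them Fah, the last enzyme of tyrosine breakdown (log2 change −0.49, SE 0.10, limma adjusted p = 0.00999). Qdpr, which regenerates the cofactor of phenylalanine hydroxylase, was lower too (log2 change −0.39, SE 0.08, limma adjusted p = 0.0105). Fah lost its call without obese rat 2, and Qdpr without obese rat 3 (limma adjusted p = 0.0553 to 0.0584); Qdpr was lost with arrays centred on their medians and with plain eBayes (limma adjusted p = 0.0503 to 0.0715). The list count was 1 without obese rat 2 or obese rat 3 and 1 with arrays centred on their medians or with plain eBayes. Of the branched chain list, 1 of 24 genes was higher and 2 lower (12.5%). That count was 0 without obese rat 2, obese rat 3, lean rat 1 or lean rat 2, 1 without obese rat 1, 0 with arrays centred on their medians or with plain eBayes and 1 with quantile normalization.

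Some members of these pathways were higher. Inmt, a methyl transferase that acts on tryptamine and other indoles, had signals of 6672, 5621 and 5694 in obese rats, against 1936, 2389 and 1747 in lean rats. Every obese rat was more than 2-fold above every lean rat (log2 change 1.57, SE 0.11, limma adjusted p = 2.42e-06). Aass, the first enzyme of lysine breakdown, had signals of 6648, 6646 and 6488 in obese rats, against 4359, 4210.1 and 3778 in lean rats, with tight groups (log2 change 0.68, SE 0.08, limma adjusted p = 0.000404). It is 1 of 4 genes called in a lysine list of 7 that was written after the values were seen, and the other 3 were lower. That count was 1 without obese rat 2, obese rat 3, lean rat 1 or lean rat 2, 2 without obese rat 1 and 2 with arrays centred on their medians or with plain eBayes. In the list for tryptophan and NAD, 2 of 18 genes were higher and 2 lower. That count was 1 without obese rat 2, 2 without obese rat 1, obese rat 3, lean rat 1 or lean rat 2 and 2 with dim probe sets kept or with arrays centred on their medians or with plain eBayes.

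Esterases and dehydrogenases that handle aldehydes, alcohols and drugs changed in both directions. Of 37 tested, 4 were higher and 11 lower (40.5%), with a median of −0.04. The count was 8 without obese rat 2 or lean rat 1 and 9 with plain eBayes. Akr1c13, an aldo-keto reductase, had signals of 6665, 5766 and 5727 in obese rats, against 16036, 11913 and 12279.6 in lean rats, and the groups did not overlap (log2 change −1.14, SE 0.16, limma adjusted p = 0.00155). Aldh1b1, a mitochondrial aldehyde dehydrogenase, had signals of 218, 189 and 219.8 in obese rats, against 462, 451 and 589 in lean rats, with each lean rat more than 2-fold above each obese rat (log2 change −1.19, SE 0.17, limma adjusted p = 0.00125). Its relative Aldh2 was lower (log2 change −0.46, SE 0.09, limma adjusted p = 0.00872), and lost its call with arrays centred on their medians (limma adjusted p = 0.0523). Ces1e, another carboxylesterase, had signals of 169, 167 and 151 in obese rats, against 679.97, 535 and 462 in lean rats; the obese rats were close together and the lean rats spread wider (log2 change −1.67, SE 0.26, limma adjusted p = 0.00227). Ces1d, a carboxylesterase that releases stored triglyceride, and Ces2c went the other way: Ces1d had signals of 804, 767 and 884 in obese rats, against 337, 398 and 328 in lean rats (log2 change 1.17, SE 0.18, limma adjusted p = 0.00227), and Ces2c averaged 1518 ± 157 in obese rats and 987 ± 36.4 in lean rats (log2 change 0.61, SE 0.10, limma adjusted p = 0.00474). Adh1c, an alcohol dehydrogenase that also acts on retinol, had the largest increase of the 4 called higher, with signals of 1699.9, 1960.3 and 1785 in obese rats, against 719, 387 and 616 in lean rats (log2 change 1.68, SE 0.19, limma adjusted p = 0.000232).

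Of 9 glucuronosyl and sulfotransferases tested, 1 was higher and 1 lower (22.2%). Sult1a1, which adds sulphate to phenols, was higher, with 2759 ± 220.2 in obese rats and 1446 ± 109 in lean rats (log2 change 0.92, SE 0.17, limma adjusted p = 0.00915). Sult4a1, a relative known mainly from brain, was lower, with 257 ± 43.4 in obese rats and 633 ± 68.1 in lean rats (log2 change −1.26, SE 0.16, limma adjusted p = 0.000565). Among 29 P450 genes tested 2 were higher and 3 lower (17.2%). That count was 3 without obese rat 2, obese rat 3 or lean rat 1 and 3 with plain eBayes. Cyp4v3, a fatty acid hydroxylase, was higher (log2 change 0.70, SE 0.13, limma adjusted p = 0.00744), and Cyp2d4 lower (log2 change −0.68, SE 0.12, limma adjusted p = 0.00709). A second Cyp2d4 probe set gave a log2 change of −0.54 (limma adjusted p = 0.178). Of 19 glutathione transferases, 3 were lower and 0 higher (15.8%), with a median of −0.14. The count was 1 without obese rat 2, obese rat 3 or lean rat 2 and 1 with dim probe sets kept or with arrays centred on their medians or with plain eBayes. Gstt1, a theta glutathione transferase, averaged 945 ± 43.2 in obese rats and 1570.2 ± 52.4 in lean rats (log2 change −0.72, SE 0.09, limma adjusted p = 0.000417). In the glutathione and NRF2 list, 2 of 47 genes were higher and 9 lower (23.4%), with a median of −0.13, which was −0.07 with quantile normalization. The count was 2 without obese rat 2, 3 without lean rat 1, 4 without obese rat 3 or lean rat 2, 5 with arrays centred on their medians and 6 with plain eBayes. Msrb1, a methionine sulfoxide reductase, averaged 5503 ± 257 in obese rats and 8413 ± 568 in lean rats (log2 change −0.61, SE 0.09, limma adjusted p = 0.00125). The aldehyde dehydrogenase and NRF2 lists share 2 of their called genes, so their counts are not separate.

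**Figure D2:**
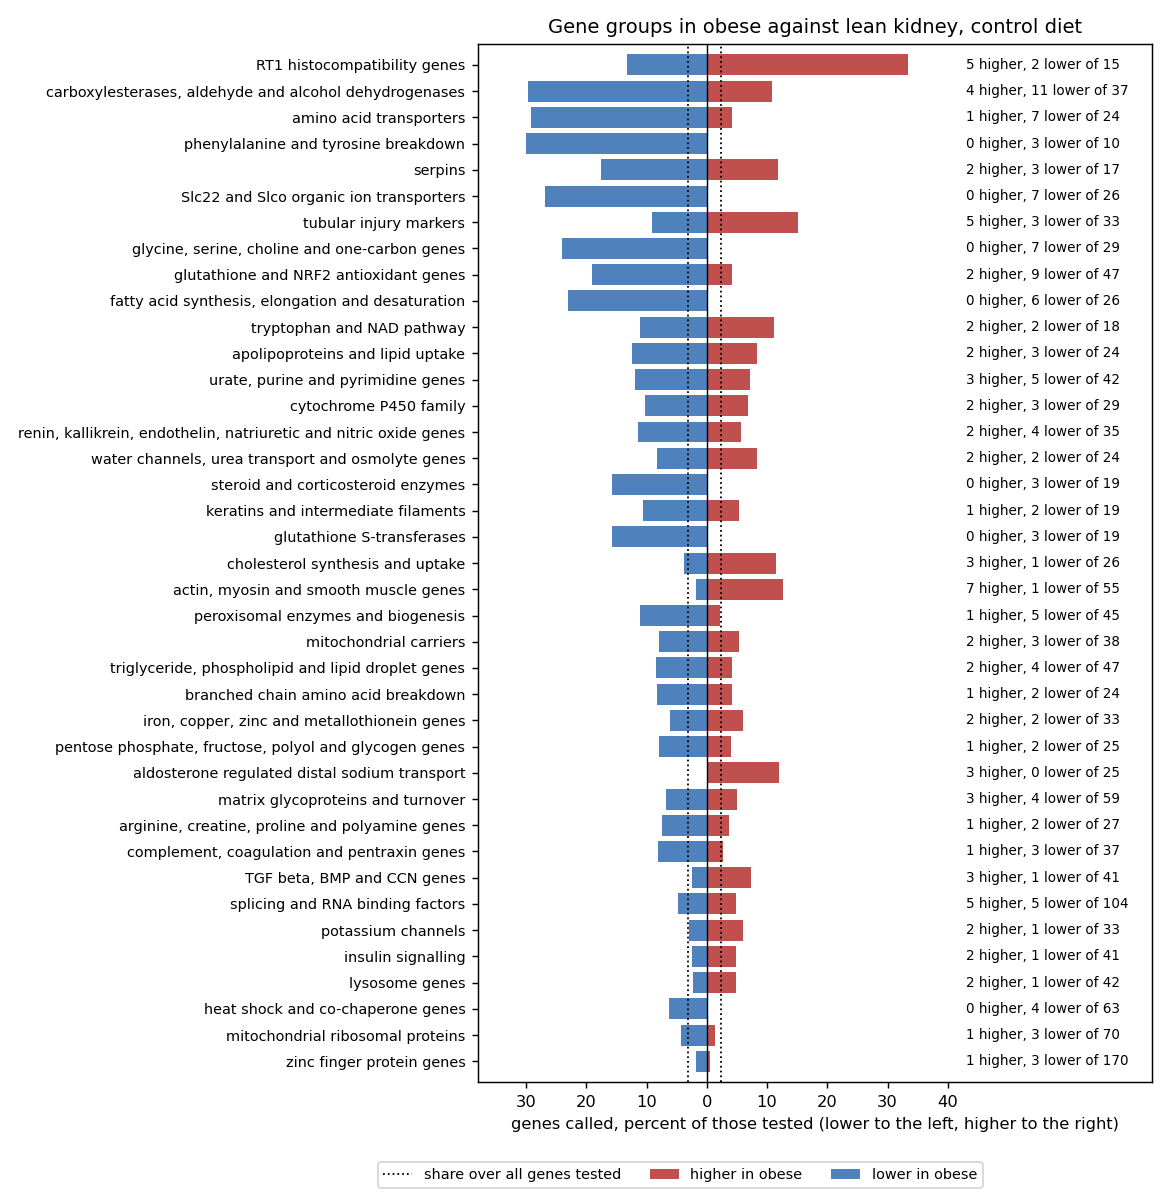
Percent of the tested genes of each list called higher (red, to the right) and lower (blue, to the left) in obese against lean kidneys on control diet, for the 39 lists with at least 10 genes tested and at least 3 called. Dotted lines mark the shares of all genes tested, 2.42% higher and 3.09% lower; the organic ion transporters have 0 genes on the higher side and 7 of 26 on the lower.

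Peroxisome and mitochondrial carrier genes were called in both directions. In the peroxisome list, 1 of 45 genes was higher and 5 lower (13.3%). That count was 2 without obese rat 2 or obese rat 3, 3 without obese rat 1, lean rat 1 or lean rat 2 and 3 with dim probe sets kept or with arrays centred on their medians. Pxmp4, a peroxisomal membrane protein, had signals of 375, 352 and 369 in obese rats, against 945, 1568 and 1621 in lean rats, and every lean rat was more than 2-fold above every obese one (log2 change −1.83, SE 0.18, limma adjusted p = 7.48e-05). A second probe set was lower too (log2 change −2.46, limma adjusted p = 5.57e-06). Pecr, a peroxisomal enoyl-CoA reductase of fatty acid elongation, had signals of 2588, 2453 and 2407 in obese rats, against 8556, 6849 and 5036 in lean rats, and the lean rats were more spread than the obese rats (log2 change −1.42, SE 0.20, limma adjusted p = 0.00168). Of 38 mitochondrial carriers, 2 were higher and 3 lower (13.2%), and that count was 3 without obese rat 1, obese rat 2, obese rat 3 or lean rat 1 and 3 with arrays centred on their medians. Higher were Slc25a24, a carrier of ATP and magnesium (log2 change 0.54, SE 0.12, limma adjusted p = 0.0193), and Ucp2, an uncoupling protein relative (log2 change 0.53, SE 0.14, limma adjusted p = 0.0397). Slc25a24 and Ucp2 lost their calls without obese rat 1, 2 or 3 or lean rat 1 (limma adjusted p = 0.0625 to 0.119). They were also lost with dim probe sets kept for Ucp2, with arrays centred on their medians for Slc25a24 and Ucp2, with plain eBayes for Ucp2 and with spike-in class in the model for Ucp2 (limma adjusted p = 0.0589 to 0.106). Slc25a15, which carries ornithine for the urea cycle, was lower (log2 change −0.67, SE 0.12, limma adjusted p = 0.00693), but 4 further probe sets for it were not called (log2 changes −0.41 to 0.07). Slc25a30, a kidney mitochondrial carrier, averaged 4742 ± 401 in obese rats and 7469 ± 416 in lean rats (log2 change −0.66, SE 0.09, limma adjusted p = 0.00111). Of 49 genes of mitochondrial fatty acid oxidation and ketones, 2 were lower and 0 higher, with a median of −0.03. The count was 0 without obese rat 2, obese rat 3 or lean rat 1, 1 without obese rat 1, lean rat 2 or lean rat 3, 0 with arrays centred on their medians or with plain eBayes and 1 with dim probe sets kept. Gpd2, the mitochondrial glycerol phosphate dehydrogenase, belongs to the triglyceride list given below and not to the fatty acid oxidation list. It averaged 293 ± 25.8 in obese rats and 613 ± 159.8 in lean rats (log2 change −0.99, SE 0.17, limma adjusted p = 0.00573).

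Several lipid synthesis genes were lower, and so were 2 of 4 brown fat and 2 of 4 white fat markers tested. Of 26 fatty acid synthesis, elongation and desaturation genes, 6 were lower and 0 higher (23.1%), with a median of −0.30. The count was 3 without obese rat 3 or lean rat 1. Fasn, the fatty acid synthase, had signals of 822, 573 and 698 in obese rats, against 2266, 1416 and 3578 in lean rats. The lean rats were uneven, but the lowest lean rat lay above the highest obese rat (log2 change −1.69, SE 0.27, limma adjusted p = 0.00406). Fabp5, a fatty acid binding protein, had signals of 2255, 2722 and 2433 in obese rats, against 4208, 4207 and 4107 in lean rats, with no overlap (log2 change −0.76, SE 0.11, limma adjusted p = 0.00166). Ucp1, which uncouples mitochondria in brown fat, had signals of 32.8, 6.87 and 4.11 in obese rats, against 803, 632 and 894 in lean rats: the obese rats lay at or under the level of the bacterial control probe sets (up to 59.6). Adipoq, the adiponectin gene of fat cells, had signals of 409.8, 448 and 644 in obese rats, against 645, 589 and 670.2 in lean rats, and the groups overlapped (log2 change −0.36, SE 0.18, limma adjusted p = 0.306). The other called markers were Cox8b of brown fat (−2.98) and Cfd (−1.87) and Fabp4 (−1.85) of white fat, while Cox7a1 of brown fat was not called (log2 change 0.34). Fabp4 lost its call without obese rat 1 (limma adjusted p = 0.055). The part of the fat markers in the lipid gene values was not tested. In the triglyceride list 2 of 47 genes were higher and 4 lower. That count was 2 without obese rat 2 or lean rat 1, 3 without obese rat 3, 2 with arrays centred on their medians or with plain eBayes and 3 with dim probe sets kept.

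**Figure D3:**
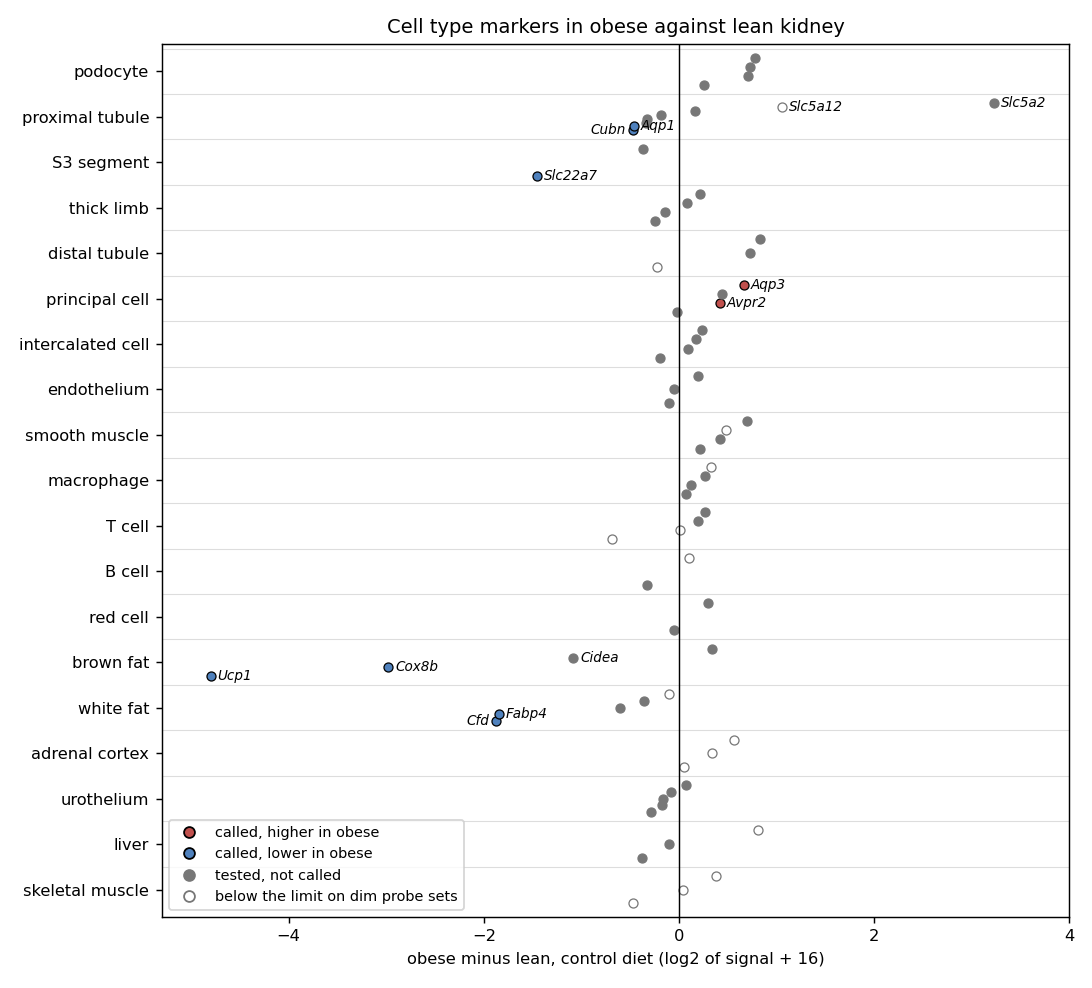
Difference of obese minus lean on control diet (log2 of signal plus 16, horizontal axis) for each marker gene, in 1 row per cell type. Filled points were tested, coloured ones were called, and open ones lay below the limit on dim probe sets; Ucp1 and Cox8b of brown fat lie farthest to the left, and Slc5a2, which was not called, farthest to the right.

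In the purine, pyrimidine and urate list, 3 of 42 genes were higher and 5 lower (19%), none of which kept its call whichever rat was left out. The count was 0 without lean rat 1, 1 without obese rat 3, 3 without obese rat 2, 4 without lean rat 2, 2 with arrays centred on their medians or with plain eBayes and 5 with dim probe sets kept. Of 33 genes of iron, copper and zinc handling, 2 were higher and 2 lower (12.1%), and that count was 1 without obese rat 1, obese rat 2, lean rat 1 or lean rat 2 and 2 with arrays centred on their medians or with plain eBayes. Slc39a8, a zinc and manganese carrier, was the member of that list whose call held with each rat left out, with 1800.4 ± 131 in obese rats and 2964 ± 447 in lean rats (log2 change −0.71, SE 0.13, limma adjusted p = 0.00603).

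Distal nephron genes showed scattered changes. In the aldosterone regulated list, 3 of 25 genes were higher and 0 lower, with a median of 0.18, which was 0.03 without lean rat 2. That count was 0 without obese rat 2, 1 without obese rat 3, 6 without lean rat 3 and 5 with quantile normalization or with spike-in class in the model or with a 60th percentile filter. These 3 were Scnn1b, part of the epithelial channel for sodium, Wnk1, a kinase that controls it, and Nr3c2, the mineralocorticoid receptor. Scnn1b lost its call without obese rat 1, 2 or 3, Wnk1 without obese rat 2 or lean rat 1, and Nr3c2 without obese rat 2 or 3 (limma adjusted p = 0.0534 to 0.0759). Slc12a3, the thiazide sensitive carrier of the distal tubule, had signals of 4030.01, 5065 and 5141 in obese rats, against 2367, 2334 and 4156 in lean rats, overlapped between groups and was not called (log2 change 0.73, SE 0.20, limma adjusted p = 0.0607). The distal tubule marker sums given above did not overlap, but 0 of the 2 markers tested were called. Of 4 principal cell markers 2 were called higher, with a median of 0.43. These were Aqp3, a basolateral water channel (log2 change 0.66, SE 0.18, limma adjusted p = 0.0478), and Avpr2, the vasopressin receptor (log2 change 0.42, SE 0.11, limma adjusted p = 0.0409). Aqp3 lost its call without obese rat 1, 2 or 3 or lean rat 1 or 3, and Avpr2 without obese rat 1, 2 or 3 or lean rat 1, 2 or 3 (limma adjusted p = 0.0525 to 0.183). They were also lost with dim probe sets kept for Aqp3 and Avpr2, with arrays centred on their medians for Aqp3 and Avpr2, with quantile normalization for Avpr2, with plain eBayes for Aqp3 and Avpr2 and with spike-in class in the model for Avpr2 (limma adjusted p = 0.0544 to 0.138). The part of these markers in the distal values was not tested. Guca2a, the gene of guanylin, a peptide that raises salt excretion, had signals of 1569, 1209 and 1469 in obese rats, against 506, 638 and 618 in lean rats. All obese rats lay above all lean rats (log2 change 1.24, SE 0.14, limma adjusted p = 0.000233). Cftr, a chloride channel, had signals of 125, 186 and 171 in obese rats, against 592, 569.7 and 441 in lean rats, and every lean rat was more than 2-fold above every obese one (log2 change −1.64, SE 0.22, limma adjusted p = 0.000901). Guca2b, the uroguanylin gene, was lower (log2 change −0.77, SE 0.17, limma adjusted p = 0.021). Guca2b lost its call without obese rat 2 or 3 or lean rat 1 (limma adjusted p = 0.071 to 0.0983). These 3 form a list of 4 tested genes that was also written after the values were seen. In the list of water channels and urea transport, 2 of 24 genes were higher, namely Aqp3 and Avpr2, and 2 lower (16.7%). That count was 1 without obese rat 2, obese rat 3 or lean rat 1, 2 without obese rat 1, lean rat 2 or lean rat 3, 1 with arrays centred on their medians or with plain eBayes and 2 with dim probe sets kept. Aqp7, a water and glycerol channel and 1 of the lower ones, averaged 2739 ± 249 in obese rats and 4171 ± 144 in lean rats (log2 change −0.61, SE 0.11, limma adjusted p = 0.00769). Of the thick limb salt transport list, 0 of 17 genes were called, against 3 without lean rat 3 and 1 with quantile normalization, and Umod, a marker of that segment, was not called (log2 change −0.25, SE 0.10, limma adjusted p = 0.173).

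Matrix and growth factor genes were called in both directions. In the TGFβ, BMP and CCN list, 3 of 41 genes were higher and 1 lower (9.76%). Ccn1, a secreted matrix protein, had signals of 663, 486 and 325 in obese rats, against 99.9, 123 and 90.5 in lean rats, and all obese rats exceeded all lean rats by more than 2-fold (log2 change 2.03, SE 0.23, limma adjusted p = 0.000233). Grem1, a secreted antagonist of BMP, had signals of 2583, 2351 and 2550.5 in obese rats, against 1149, 1398 and 1362 in lean rats, with tight groups (log2 change 0.93, SE 0.11, limma adjusted p = 0.000347). Ogn, a small leucine rich proteoglycan, was higher (log2 change 1.11, SE 0.21, limma adjusted p = 0.00915), but another of its probe sets had a log2 change of −1.19 (limma adjusted p = 0.0507), and the other 2 gave 0.45 and 0.07 without a call. Tgfbi, a matrix protein induced by TGFβ, was lower (log2 change −0.52, SE 0.09, limma adjusted p = 0.00484). Of 24 collagen genes, 1 was higher and 0 lower, with 0 without obese rat 1, obese rat 2, lean rat 1, lean rat 2 or lean rat 3 and 0 with dim probe sets kept or with arrays centred on their medians or with plain eBayes. The list median was 0.25, and 0.08 without lean rat 2. For the matrix glycoprotein list, 3 of 59 were higher and 4 lower (11.9%). The count was 2 without lean rat 1, 3 without obese rat 2 or obese rat 3 and 4 with dim probe sets kept.

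Among actin genes, more were called higher than lower. Of 55 actin, myosin and smooth muscle genes, 7 were higher and 1 lower (14.5%), with a median of 0.13. The count was 4 without obese rat 2 or lean rat 1, 5 without obese rat 3, 4 with arrays centred on their medians or with plain eBayes and 5 with dim probe sets kept. Rhoc, a small GTPase that drives actin assembly, had signals of 1344, 1080.5 and 1176 in obese rats, against 670.1, 778 and 675 in lean rats, and the groups did not overlap (log2 change 0.75, SE 0.11, limma adjusted p = 0.00186). Actn1, an actin crosslinker, averaged 1584 ± 82.7 in obese rats and 1025 ± 66.6 in lean rats (log2 change 0.62, SE 0.10, limma adjusted p = 0.0041). Gsn, gelsolin, which severs filaments, averaged 3965 ± 101 in obese rats and 2578 ± 433 in lean rats (log2 change 0.63, SE 0.11, limma adjusted p = 0.0056). Pls3, or plastin 3, averaged 4258 ± 337 in obese rats and 2810.1 ± 89.2 in lean rats (log2 change 0.59, SE 0.10, limma adjusted p = 0.0056). The 4 smooth muscle markers summed to 3402 to 4157 in obese rats, against 2711 to 2907 in lean rats; none of the 3 tested was called, and their part in the actin values was not tested.

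Tubular injury markers went both ways. Of 33 tested, 26 had a higher mean in obese rats, against 5560 of all 10524 genes tested. Of the 33, 5 were called higher and 3 lower (24.2%), with a median of 0.29. The count was 3 without obese rat 3 or lean rat 1, 5 without obese rat 1 or obese rat 2, 4 with arrays centred on their medians and 5 with dim probe sets kept or with plain eBayes. With arrays centred on their medians the split was 1 higher and 3 lower. Krt19, a keratin of ducts and urothelium, had signals of 567, 362 and 571 in obese rats, against 1667, 1713 and 1117 in lean rats, and was lower (log2 change −1.56, SE 0.23, limma adjusted p = 0.00204). Tff3, a trefoil factor, averaged 15696 ± 1561 in obese rats and 24432 ± 1760.2 in lean rats (log2 change −0.64, SE 0.11, limma adjusted p = 0.00433). Prom1, the progenitor marker CD133, averaged 4005 ± 216 in obese rats and 6095 ± 548 in lean rats (log2 change −0.60, SE 0.09, limma adjusted p = 0.00184). Havcr1, the injury marker KIM-1, had signals of 2592, 277 and 679 in obese rats, against 145, 214 and 96.6 in lean rats; obese rat 1 was the highest by far, and no difference was called (log2 change 2.33, SE 0.70, limma adjusted p = 0.0831). Spp1, osteopontin, was 1 of the 5 called higher (log2 change 0.95, SE 0.19, limma adjusted p = 0.0148). Spp1 lost its call without obese rat 3 or lean rat 1 (limma adjusted p = 0.0509 to 0.0638).

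Immune genes were led by the RT1 histocompatibility genes, whose sequences are near copies of one another, so that a probe set may read more than 1 of them. Of 15 tested, 5 were higher and 2 lower (46.7%). That count was 4 without obese rat 1, obese rat 2 or obese rat 3. RT1-CE5 had signals of 674, 915 and 778 in obese rats, against 316, 289 and 228 in lean rats, and RT1-CE10 averaged 705 ± 130.5 in obese rats and 355 ± 36.5 in lean rats; both were higher (log2 change 1.45, SE 0.15, limma adjusted p = 0.000122 for the first). RT1-CE16 had signals of 176, 102 and 145 in obese rats, against 1394, 1541 and 753 in lean rats, and was far lower (log2 change −2.95, SE 0.28, limma adjusted p = 5.99e-05). Ifi44l, an interferon induced gene, averaged 169 ± 28.4 in obese rats and 442 ± 105 in lean rats (log2 change −1.29, SE 0.22, limma adjusted p = 0.00513), and it was the only called gene of 42 in the interferon list, where the count was 2 without lean rat 3 and 2 with spike-in class in the model. In the complement and coagulation list, 1 of 37 genes was higher and 3 lower (10.8%). F2, prothrombin, averaged 183 ± 25.7 in obese rats and 568 ± 167 in lean rats (log2 change −1.53, SE 0.19, limma adjusted p = 0.000565). Ctsc, cathepsin C, which activates granule proteases, averaged 3031 ± 225 in obese rats and 1628 ± 288 in lean rats (log2 change 0.90, SE 0.13, limma adjusted p = 0.00155). Among 17 serpins, 2 were higher and 3 lower (29.4%), and that count was 3 without obese rat 3 or lean rat 1. Serpinb12, a protease inhibitor of epithelia, averaged 377 ± 20.3 in obese rats and 900.4 ± 125 in lean rats (log2 change −1.21, SE 0.19, limma adjusted p = 0.00279). Of 47 chemokine, cytokine and receptor genes, 1 was higher and 0 lower, and that count was 0 without obese rat 1, obese rat 2, obese rat 3 or lean rat 1, 2 without lean rat 2, 0 with dim probe sets kept or with arrays centred on their medians or with plain eBayes and 3 with spike-in class in the model.

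Hormone receptor and signalling lists had shares of calls of 3.33% (leptin and JAK-STAT) and 7.32% (insulin). Prlr, the prolactin receptor, had signals of 5292, 3695 and 4162 in obese rats, against 7592, 8943 and 7148 in lean rats, and the groups did not overlap (log2 change −0.86, SE 0.16, limma adjusted p = 0.00743). Both other Prlr probe sets were lower as well (log2 change −1.30 with limma adjusted p = 0.000903, and −1.79 with limma adjusted p = 5.57e-06). It was the only call among 30 leptin and JAK-STAT genes, where the count was 2 without lean rat 2. Pik3r1, the regulatory subunit of PI3 kinase that insulin receptors act through, had signals of 256, 177 and 231 in obese rats, against 537, 921 and 667 in lean rats, and was lower (log2 change −1.59, SE 0.26, limma adjusted p = 0.00309). Prkab1, an AMPK subunit, was higher (log2 change 0.57, SE 0.11, limma adjusted p = 0.00872). These were 2 of 3 genes called among 41 of insulin signalling. Crym, a thyroid hormone binding protein, averaged 5109 ± 366 in obese rats and 7913 ± 737 in lean rats (log2 change −0.63, SE 0.11, limma adjusted p = 0.00433). A list of 13 tested genes of thyroid hormone handling was written after the values were seen and carries no independent weight. In it 5 were lower and 0 higher, and the count was 2 without obese rat 2 or 3 or lean rat 1. Rnls, renalase, an enzyme released by the kidney, averaged 1487 ± 63.9 in obese rats and 2695 ± 303 in lean rats (log2 change −0.85, SE 0.10, limma adjusted p = 0.000404), although 2 further Rnls probe sets were not called (−0.19 and −0.15). Pparg, the target of rosiglitazone, had signals of 239, 149 and 220.3 in obese rats, against 166, 179 and 223 in lean rats and was not called (log2 change 0.08, SE 0.22, limma adjusted p = 0.896). Degs2, a sphingolipid desaturase, was higher (log2 change 0.96, SE 0.15, limma adjusted p = 0.00244), and was 1 of 2 genes called among 26 sphingolipid genes (7.69%). Ccng1, a cyclin induced by p53, was higher (log2 change 0.74, SE 0.13, limma adjusted p = 0.00465). It was the only call among 37 p53 and cell death genes (2.7%), where the count was 2 without lean rat 3 and 3 with spike-in class in the model.

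Some genes outside the lists are named after their values were seen, for their roles. Asrgl1, an asparaginase, averaged 2885 ± 441 in obese rats and 6445 ± 103 in lean rats (log2 change −1.17, SE 0.13, limma adjusted p = 0.000233). Slc19a1, the reduced folate carrier, averaged 883 ± 64.5 in obese rats and 1316 ± 107 in lean rats (log2 change −0.57, SE 0.11, limma adjusted p = 0.00804). Rgn, regucalcin, an enzyme of the ascorbate pathway in rats, was lower as well (log2 change −0.83, SE 0.13, limma adjusted p = 0.00227). Higher in obese kidneys were Mief1, a receptor of mitochondrial fission, with signals of 690.5, 653 and 639 in obese rats, against 384, 236 and 133 in lean rats, and Tamm41, an enzyme of cardiolipin synthesis, with signals of 481, 476 and 553 in obese rats, against 221, 200.01 and 205 in lean rats. For both, all obese rats lay above all lean rats (log2 change 1.46, SE 0.27, limma adjusted p = 0.00768 for Mief1, and log2 change 1.21, SE 0.13, limma adjusted p = 0.000161 for Tamm41).

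At a limma adjusted p under 0.05, 10 lists held 0 calls. These were glycolysis (19 tested), glucose transport and gluconeogenesis (16), proteasome subunits (44), cytosolic ribosomal proteins (42), translation factors and tRNA ligases (84), growth factors and receptors (43), the circadian clock (21), mitochondrial dynamics and autophagy (41), retinoid genes (22) and thick limb salt transport (17). At an unadjusted limma p under 0.05 their shares ran from 3 of 44 genes (the proteasome) to 6 of 17 (the thick limb), against 2155 of all 10524 genes tested. The clock held 2 of 21 and the ribosomal proteins 11 of 42. Without lean rat 3, the thick limb and growth factor lists held 3 calls each, and those of glycolysis, glucose, the proteasome, cytosolic ribosomal proteins and the clock 1 each. Quantile normalization gave 1 call each for glycolysis, the thick limb and growth factors. With the spike-in class in the model, growth factors held 2 calls, and glucose, translation, ribosomal proteins and the clock 1 each. A 60th percentile filter gave 2 calls each for growth factors and the clock, an offset of 64 gave 1 for growth factors, and without obese rat 1 the ribosomal proteins held 1. The lists of mitochondrial dynamics and of retinoid genes held 0 under all of these. The first does not hold Mief1 of mitochondrial fission, and the second does not hold Adh1c, both named above as higher. The ribosomal protein median depended on the scaling: it was −0.15 as deposited and 0.00 with quantile normalization, with 2 calls, both higher. In all, 230 of the 580 called genes were in at least 1 of the 80 function lists.

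Of the 580 called genes, 149 had several probe sets tested. In 124 of these every probe set had the same direction, and in 43 another one was called too. The rats on rosiglitazone were other animals than those above, so the group means of that comparison share no array with the control diet ones. The calls are not separate in this way, because both comparisons came from the same fit, with the spread estimated over all arrays. Genes with little spread on rosiglitazone were thus more readily called on control diet. On rosiglitazone, 559 of the 580 genes had the same direction (96.4%, against 70.5% of all genes). Of the 580, 288 were called in the same direction (the background was 6.02%). A further count, 439, did not overlap in the same direction (25.6% of all genes did not overlap in either). The 288 and the 439 are therefore not independent of the choice of the 580 genes. The median absolute log2 change of the 580 genes was 0.46 on rosiglitazone and 0.61 on control diet, but the genes had been chosen on control diet. The difference between the 2 diets was tested by the interaction, in which limma called 0 of 18625 probe sets at an adjusted p under 0.05 and 802 (4.31%) had an unadjusted p under 0.05. Without lean control rat 2 that count was 4, with spike-in class in the model 3, and with a 60th percentile filter or quantile normalization 1. On rosiglitazone the log2 change of Slc7a12 was −0.85 (limma adjusted p = 0.00159), that of Slco1a1 −1.05 (limma adjusted p = 0.00414) and that of Guca2a 1.27 (limma adjusted p = 0.000272). Ces1d gave −0.15 there (limma adjusted p = 0.719), Ace −0.23 (limma adjusted p = 0.347) and Fasn 0.57 (limma adjusted p = 0.258). Nkd2, an inhibitor of Wnt signalling singled out after its values were seen, was the only gene called in opposite directions. On control diet it had signals of 250.00, 223 and 266 in obese rats, against 427, 607 and 586 in lean rats (log2 change −1.07, SE 0.24, limma adjusted p = 0.0209), and on rosiglitazone its log2 change was 1.12 (limma adjusted p = 0.0154). The interaction for Nkd2 was not called (limma adjusted p = 0.124), and on control diet Nkd2 lost its call without obese rat 1, 2 or 3 or lean rat 2 or 3 (limma adjusted p = 0.0548 to 0.0857).

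**Figure D4:**
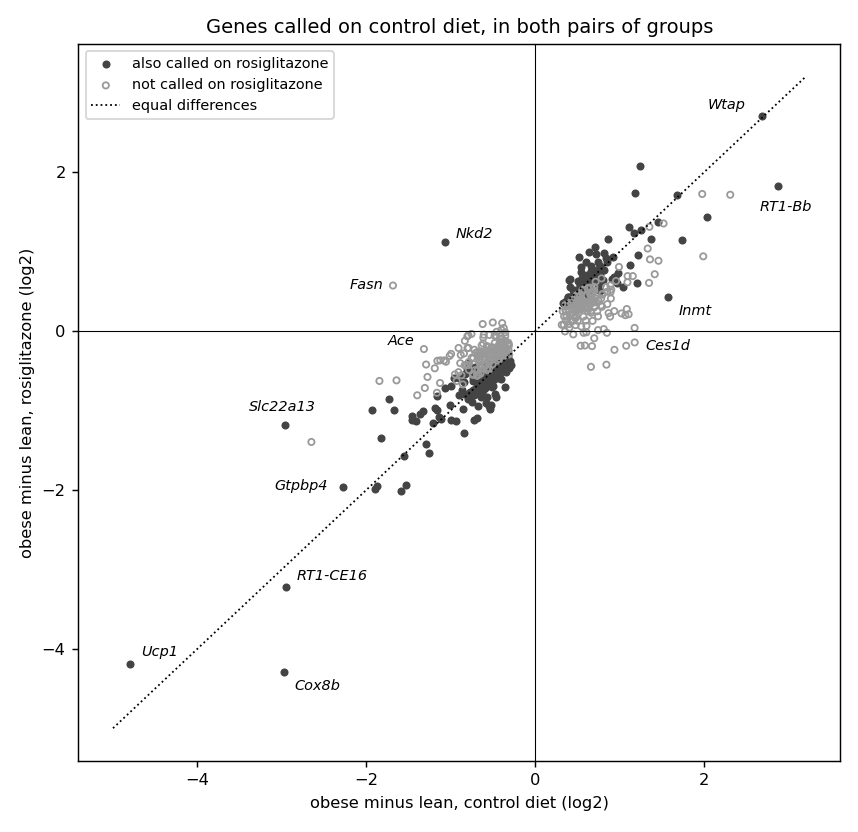
Log2 change of obese against lean kidneys on control diet (horizontal axis) and on rosiglitazone (vertical axis) for the 580 genes called on control diet, 1 point per gene. Filled points were also called on rosiglitazone, 288 of them in the same direction, and the dotted line marks equal differences. Of the 580 points, 559 have the same sign on both axes, and Nkd2 is the filled point with opposite signs.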

How the data were processed

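Kidney RNA of 12 male Zucker rats, 3 in each of 4 groups and 1 Affymetrix Rat Genome 230 2.0 array per rat, was measured by the authors. The deposited values are intensity signals on a linear scale, made with MAS5 per the submitters' processing notes, which give no version. Scanner settings and later steps were not given in the sources used here. From the values, the 2% trimmed mean of every array lay between 500.12 and 500.15, so no further normalization was applied. The labels call the samples separate rats, so the p-values measure the spread between these rats.

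The 57 control probe sets with the AFFX prefix were left out of 31099, which left 31042. Of these 20826 carry 1 symbol, 436 several and 9780 none in the platform table. Gene IDs of 20758 were found in the GRCr8 table of RefSeq, and 0 symbols had to be updated. The log2 of the deposited signal plus 16 was taken, and a mean of at least the 40th percentile (7.32) was required, which 18625 probe sets met. All 12 arrays were fitted with 4 group means in limma 3.58.1 (with statmod 1.5.0, R 4.3.3; lmFit, then eBayes with trend and robust; 8 residual degrees of freedom). P-values were adjusted by Benjamini-Hochberg over all probe sets, and a gene was called at an adjusted p under 0.05. Each gene was read through the probe set of the highest mean. The fit was tested on simulated data, and figures were made with matplotlib 3.10.9 (Python 3.11.15, pandas 2.3.3, numpy 2.4.6).

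The genes and lists were chosen with earlier results of these data known: 99 lists (80 of functions, 19 of markers) and 4 more written after the values were seen. A rule took the 10 highest and 10 lowest log2 changes among called genes whose groups did not overlap, predicted names left out. It also took up to 6 called members of smallest p per list, the brightest members that were not called, and set genes. Not every gene taken by the rule is named in the text. Of those with the largest changes, AKR1C3l1, Apcs, Gtpbp4, Lypd2, Me2, Pamr1, RT1-Bb, Sfrp2, Thrsp, Ubd and Wtap are not described. Genes named beyond that rule are said to be so, except Slc7a7, Lap3, Aldh2, Ces2c, Slc3a1 and Blvra, which the rule did not take either. Promoters were taken from RefSeq on GRCr8 and matched by symbol; the motifs were picked with the values known, and the HNF1 letters were shortened by 1 after a first search. Alternatives changed the offset, the filter, the scaling, the eBayes settings, the model terms and the arrays used.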

Additional observations from a re-analysis of the deposited data

How the results depend on the processing

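On control diet 882 probe sets were called. The count was 516 with arrays centred on their medians, 548 with plain eBayes, and 164 and 52 within the lower and the higher spike-in class alone, where fewer rats were fitted. Leaving out 1 control diet rat at a time gave 325 to 837. The other settings (offsets of 1 and 64, no filter, a 60th percentile filter, quantile normalization, the spike-in class in the model, control diet arrays alone) gave 693 to 995. On rosiglitazone 932 were called, 493 with median centring and 589 with plain eBayes, and 474 to 809 with 1 rat left out. For the difference between diets 0 were called, 1 with the 60th percentile filter, 1 with quantile normalization and 3 with the spike-in class in the model, and 0 to 4 with 1 rat left out. Beyond the construction of these alternatives, the cause was not tested. Same-numbered obese and lean rats on control diet did not deviate together (pairing correlations 0.052, −0.129 and 0.118), so the numbers do not pair those samples. The rats on rosiglitazone were not checked in this way. With the replicate number as a block 961 were called on control diet, of which 811 were among the 882. In that model 1002 were called on rosiglitazone and 0 for the difference. The aldosterone regulated list then held 7 calls. Of 222 named and called genes, 3313 values under these alternatives gave 2505 calls in the same direction, 808 without a call and 0 in the opposite direction. The 3 rats per group limit the precision, and probe sets near the bacterial control level have no reliable order there.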
